A study of Mus musculus with 2 samples.

Results

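The genes described here encode the machinery that starts transcription of messenger RNA in the mouse: RNA polymerase II, its general initiation factors and the Mediator complex. They are the rows of the count table whose symbol starts with Polr2 (13 rows), with Gtf2 (16), with Med and a digit (30) or with Taf and a digit (23), together 82 of 23418 rows. The tested library came from 1 pool of 20 C57BL/6 embryos at the 4 to 8-cell stage that had received an siRNA against Dnmt1, named siDnmt1. It is set against 1 pool of 20 embryos of the same strain and stage that had received a scrambled siRNA. All embryos were therefore injected, no sex or individual embryo can be read from the pools, and no transgene or deletion is named. With 1 library per group there is no replicate check, no test across embryos and no p-value. Intervals below are exact 95% binomial (Clopper-Pearson) intervals of a count ratio and cover counting error only.

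RNA polymerase II is a multisubunit enzyme that transcribes protein-coding genes. It cannot find a promoter alone: TFIID, made of the TATA-binding protein and the TAF proteins, marks the start site, TFIIA and TFIIB join it, TFIIF brings the polymerase, and TFIIE and TFIIH follow, TFIIH opening the DNA. Mediator passes signals from DNA-bound activators to the polymerase, and a detachable kinase module controls it. In the mouse, the embryo moves during cleavage from RNA stored in the oocyte to transcripts of its own genome. How much of each these libraries held was not measured.

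The siDnmt1 library held 12236615 counts and the scrambled library 11675483, of which Rn45s, the ribosomal RNA precursor, took 37.3% and 29.9%. Dnmt1, the target, had 687 counts in the siDnmt1 library against 847 in the scrambled library, 1.23-fold lower (1.11 to 1.37), and 38.3% of the genes compared had ratios as low or lower. At the RNA level the label of the siDnmt1 library is therefore only weakly checked by its target. Of 12 markers of oocyte and cleavage embryo, 9 reached a mean of 20 counts, with Pou5f1 at 1489 against 2152 and Tead4 at 2455 against 2202, while Zar1 was at 0 in both and Ooep at 0 against 15. The 12 cumulus and granulosa markers summed to 9 counts against 0, and the 7 sperm and 4 fibroblast markers were at 0 in both libraries. Among the 3 blood markers both haemoglobin genes were at 0 and Ptprc had 16 counts against 6.

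Across the machinery the genes differed in both directions, with more of them past 2-fold downward than upward in siDnmt1. Of the 82 genes, 63 had a mean of at least 20 counts over the libraries and were compared, 15 had fewer counts and 4 had none in either library. Ratios were taken on the scale log2((siDnmt1 + 5)/(scrambled + 5)). Of the 63, 4 (6.35%) were higher in siDnmt1 by 2-fold or more, where 12.5% of all 7315 genes with such a mean were. Lower by 2-fold or more were 17 of the 63 (27%), where 16.7% of all genes were. The other 42 lay within 2-fold. The median log2 ratio of the 63 genes was -0.09, beside -0.02 over all genes, and it became 0.00026 with totals equalised without Rn45s and 0.13 once the trend with transcript length was removed. With totals equalised without Rn45s, 6 were higher and 13 lower. The median log2 ratio of all genes was then 0.06, and the matching shares of all genes are not given here. In pooled embryos, fewer cells and less RNA per cell cannot be told apart.

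**Figure D1:**
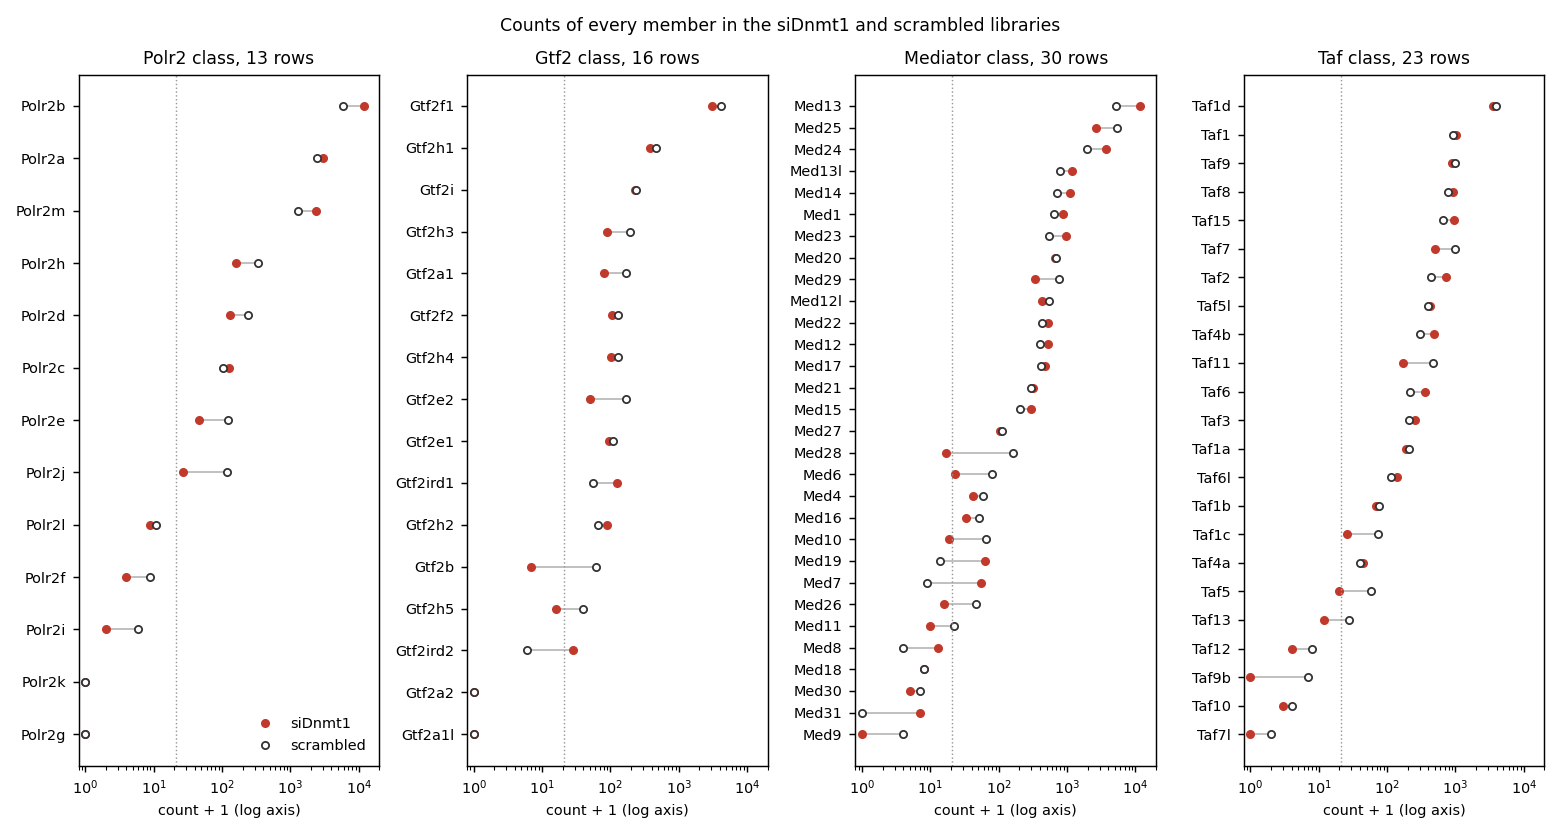
Counts of all 82 genes by class, plotted as count + 1 on a log axis, with filled points for the siDnmt1 library and open points for the scrambled library. The dotted line marks a count of 20. Polr2b and Med13 have the most counts of their classes in the siDnmt1 library, 11811 and 11847, and Med28 and Gtf2b have their siDnmt1 point far to the left of the scrambled one.

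The lowest 2 ratios and the highest 2 belonged to single subunits, and the promoters of these 4 genes are shown because they stand at the ends of the set. Med28, a subunit of the Mediator head, had 16 counts in the siDnmt1 library against 159 in the scrambled library, 9.94-fold lower (5.93 to 17.8). Gtf2b, which encodes TFIIB, the bridge between the TATA-binding protein and the polymerase, had 6 counts against 60, 10.0-fold lower (4.33 to 28.3). Med7, a subunit of the Mediator middle, had 54 counts against 8 and was 6.75-fold higher (3.19 to 16.4). Med19, of the head, had 61 against 13 and was 4.69-fold higher (2.55 to 9.31). All rest on 159 counts or fewer in either library. Removal of the trend with transcript length left log2 ratios of -3.08 for Med28, -2.52 for Gtf2b, 2.30 for Med7 and 2.13 for Med19, and all 4 stayed past 2-fold.

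The windows run from 250 bases before to 50 bases after the RefSeq start on GRCm38.p6, 5′ to 3′ on the strand of the gene, and capitals mark CpG, the dinucleotide that Dnmt1 methylates. Med28 lies on the plus strand at chr5:45519979-45520278, Gtf2b on the plus strand at chr3:142764997-142765296, Med7 on the plus strand at chr11:46436697-46436996 and Med19 on the plus strand at chr2:84678152-84678451.
Med28: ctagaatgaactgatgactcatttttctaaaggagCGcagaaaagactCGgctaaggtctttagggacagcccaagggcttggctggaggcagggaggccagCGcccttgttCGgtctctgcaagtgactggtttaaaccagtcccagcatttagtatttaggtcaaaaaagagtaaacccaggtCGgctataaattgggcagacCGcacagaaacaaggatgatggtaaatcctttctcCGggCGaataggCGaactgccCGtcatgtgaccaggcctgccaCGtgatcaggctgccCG
Gtf2b: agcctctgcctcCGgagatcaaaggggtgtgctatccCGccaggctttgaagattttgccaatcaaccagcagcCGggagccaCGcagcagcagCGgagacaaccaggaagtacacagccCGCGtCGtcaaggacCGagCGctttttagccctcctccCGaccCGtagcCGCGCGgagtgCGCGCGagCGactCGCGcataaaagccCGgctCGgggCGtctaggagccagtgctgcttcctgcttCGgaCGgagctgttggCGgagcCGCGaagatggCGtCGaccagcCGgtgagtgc
Med7: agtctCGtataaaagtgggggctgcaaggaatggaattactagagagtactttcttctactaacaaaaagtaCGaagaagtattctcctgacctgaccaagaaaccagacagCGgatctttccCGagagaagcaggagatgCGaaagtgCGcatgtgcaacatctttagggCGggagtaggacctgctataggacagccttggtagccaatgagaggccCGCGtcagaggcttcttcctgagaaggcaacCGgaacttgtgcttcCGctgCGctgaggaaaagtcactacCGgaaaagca
Med19: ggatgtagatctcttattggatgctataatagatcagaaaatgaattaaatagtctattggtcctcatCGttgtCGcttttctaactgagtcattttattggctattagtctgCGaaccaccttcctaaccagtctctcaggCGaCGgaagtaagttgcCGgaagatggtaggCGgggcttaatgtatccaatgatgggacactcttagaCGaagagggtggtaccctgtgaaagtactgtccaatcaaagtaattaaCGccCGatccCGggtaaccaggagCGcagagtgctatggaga

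The Gtf2b window held 32 CpG, the Med7 window 13, and those of Med28 and Med19 12 each. Med28 and Med19, at opposite ends of the set, thus had the same number. RefSeq windows were found for 71 of the 82 genes, 86 windows in all. CpG, which reads the same on both strands, was present in 86 of the 86 (100%) with a median of 22 per window (middle 50% from 15 to 30). Over the windows of all genes compared it was present in 99.4% with a median of 22, and over all windows in the table in 94.6% with a median of 7. The letters TATAAA, on either strand, occurred in 12 of the 86 windows (14%), in 6.67% of the windows of genes compared and in 13.6% of all windows. The windows shown for Med28 and Med7 had a match and those of Gtf2b and Med19 did not. RefSeq lists another start of Med7, whose window at chr11:46436711-46437010 held 12 CpG and no match. Methylation of these windows was not analysed here.

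As counted, the polymerase itself was higher in siDnmt1 for its large subunits and lower for several small ones. With the length trend removed, only Polr2e of the class was at least 2-fold lower. Polr2b, the second-largest subunit, which forms the active site with Polr2a, had 11811 counts in the siDnmt1 library against 5988 in the scrambled library, 1.97-fold higher (1.91 to 2.04), just inside the 2-fold line. Polr2a, the largest subunit, whose tail of repeats is phosphorylated during the transcription cycle, had 3030 against 2459, 1.23-fold higher (1.17 to 1.3). Polr2m, which encodes the polymerase-bound inhibitor Gdown1, had 2360 against 1305, 1.81-fold higher (1.69 to 1.94). These were the most counted genes of the class in both libraries.

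Polr2j, which pairs with Polr2c in the assembly core, was the lowest of the class, with 26 counts in siDnmt1 against 118 in scrambled, 4.54-fold lower (2.95 to 7.23). Its partner Polr2c had 125 against 101, a ratio of 1.24 whose interval takes in equality (0.94 to 1.62). As counted, the interval of Polr2j left out equality and that of Polr2c did not. These intervals do not cover the choice of scaling or PCR copies, so a difference between the partners was not established. Polr2c shares 953 exon bases with Dok4 on the opposite strand in GENCODE M21, and Polr2j shares 176 with Lrwd1. Whether counting used the strand is not given in the sources used here, so reads of such pairs cannot be told apart.

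Of the 5 subunits that polymerases I, II and III share, Polr2e and Polr2h were compared and both were at least 2-fold lower as counted. With the length trend removed, only Polr2e was, at a log2 ratio of -1.20, and Polr2h stood at 0.08. Polr2e had 45 counts against 123, 2.73-fold lower (1.93 to 3.94), and Polr2h had 160 against 330, 2.06-fold lower (1.70 to 2.51). A processed pseudogene, Gm7511, matches 46.8% of the Polr2h transcript at 98.0% identity, so the Polr2h counts are uncertain. The other shared subunits were near the floor: Polr2f had 3 counts against 8, Polr2l 8 against 10 and Polr2k none in either library. Polr2d, of the stalk, had 130 against 239, 1.84-fold lower (1.48 to 2.29), but a log2 ratio of 0.19 with the length trend removed. Its stalk partner Polr2g had no count in either library. Polr2i had 1 count against 5, a ratio of 0.20 (0.0042 to 1.79).

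Summed over the 13 genes, the class had 17699 counts in siDnmt1 against 10686 in scrambled, 1.66-fold more (1.62 to 1.70), and 1.25-fold more (1.21 to 1.3) without Polr2b. Its median log2 ratio over the 8 genes compared was -0.28, opposite in direction to the sum. The median was 0.16 after the length trend was removed and 0.30 over the 6 genes whose mean reached 100 counts. Per kilobase of longest transcript, Polr2b stood at 2849 counts in siDnmt1 and 1445 in scrambled, Polr2a at 450 in siDnmt1 and 365 in scrambled, and Polr2e at 18.7 in siDnmt1 and 51.2 in scrambled. Levels per length of subunits of the same enzyme therefore differed widely within each library.

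**Figure D2:**
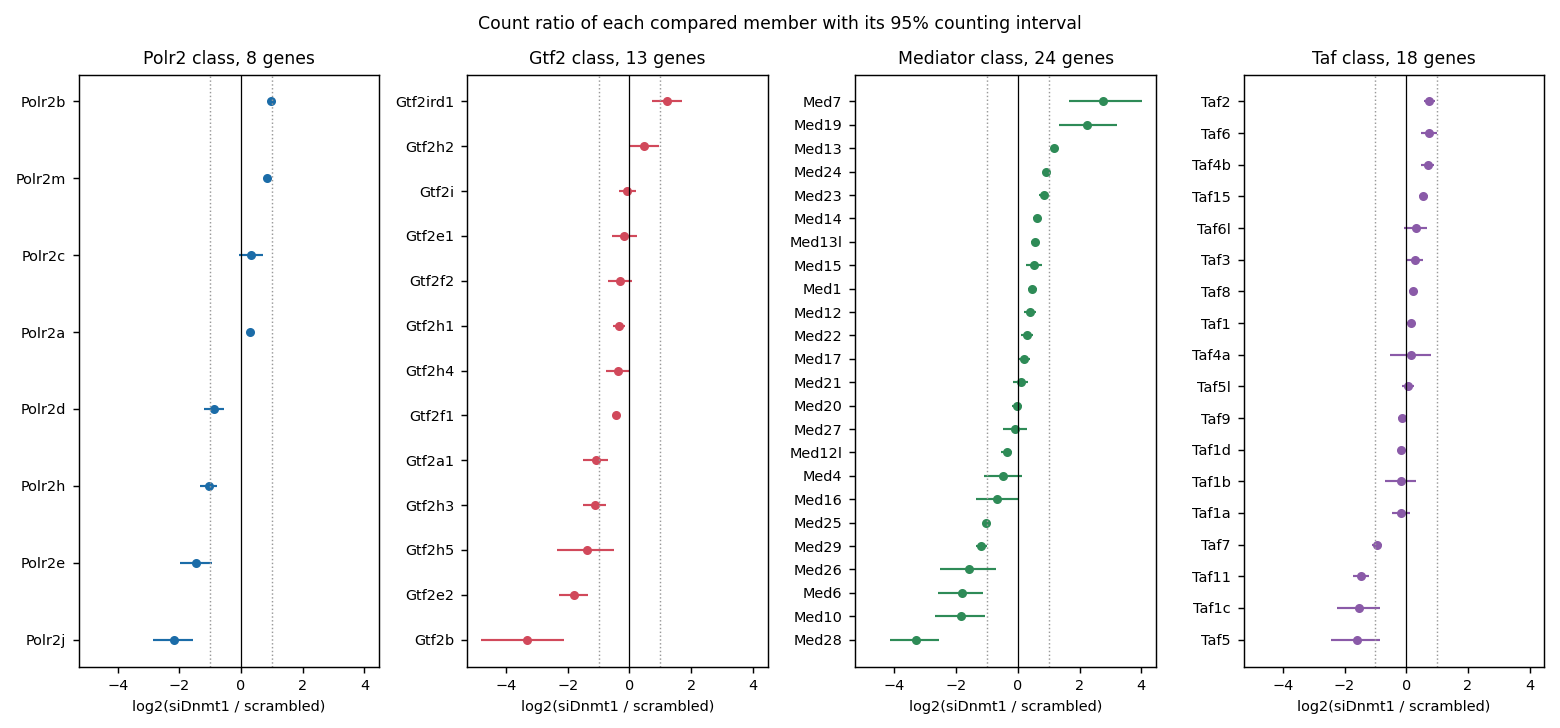
Log2 of the plain count ratio siDnmt1 over scrambled for the 63 genes compared, with bars for the 95% counting interval and dotted lines at 2-fold. The widest intervals belong to Gtf2b, Med7 and Med19, and the points of Gtf2b and Med28 lie farthest to the left.

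Among the general factors, 10 of the 11 compared subunits of TFIIA, TFIIB, TFIIE, TFIIF and TFIIH whose names start with Gtf2 had lower counts in siDnmt1. Past 2-fold downward were 5 of the 11, where 16.7% of all genes were, and past it upward 0, where 12.5% were. TFIIH subunits with other names are given below, and Ercc3 among them was past 2-fold upward. The median log2 ratio of the 11 was -0.42, beside -0.02 over all genes. It was -0.24 after removal of the length trend, with 3 at least 2-fold lower, where 14% of all genes with a length were. Gtf2f1 (0.03), Gtf2f2 (0.34), Gtf2h4 (0.12) and Gtf2h2 (0.82) then had log2 ratios above 0, and the rest of the 11 stayed below. Lower counts were also common among short transcripts in general, as described below. Gtf2a1, the precursor of the large TFIIA subunits, had 80 counts against 171, 2.14-fold lower (1.63 to 2.82). The small TFIIA subunit Gtf2a2 and the germ-cell paralog Gtf2a1l had no count in either library.

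TFIIE, which recruits TFIIH, differed between its subunits. Gtf2e2, the beta subunit, had 49 counts in siDnmt1 against 170 in scrambled, 3.47-fold lower (2.51 to 4.87). Gtf2e1, the alpha subunit, had 96 against 108, with an interval of the ratio that includes equality (0.67 to 1.18). The TFIIF subunits lay close together: Gtf2f1 had 3073 against 4114, 1.34-fold lower (1.28 to 1.40), and Gtf2f2 had 104 against 129 (1.24-fold lower, ratio interval 0.62 to 1.05).

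TFIIH also repairs DNA, and its core genes were spread. Gtf2h5, the smallest subunit, had 15 counts against 39, 2.60-fold lower (1.40 to 5.08), and Gtf2h3 had 88 against 192, 2.18-fold lower (1.69 to 2.84). Gtf2h1 had 373 against 471 and Gtf2h4 101 against 130, both within 2-fold. Gtf2h2 had 88 against 64, with a ratio interval of 0.99 to 1.93. As counted, it was the only one of the 11 Gtf2-named subunits with more counts in siDnmt1.

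The TFII-I family shares the Gtf2 name but binds DNA at selected genes and is not part of the basal machinery. Gtf2ird1 had 125 counts in siDnmt1 against 54 in scrambled, 2.31-fold higher (1.67 to 3.25). Its neighbour in name Gtf2ird2 had 27 against 5, 5.40-fold higher (2.05 to 18), below the minimum mean. Gtf2i had 227 against 238. Gtf2ird2 shares 408 exon bases with Ncf1 on the opposite strand, which had 83 counts against 55.

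With the pseudocount of 5, the 30 Mediator genes held both the lowest and the highest log2 ratio of the set. As counted, Med13 alone accounted for the difference in their sum. Summed counts were 26172 in siDnmt1 against 19595 in scrambled, 1.34-fold more (1.31 to 1.36). Med13, which ties the kinase module to the core complex, had 11847 counts against 5220, 2.27-fold higher (2.20 to 2.35). Without Med13 the sums were 14325 and 14375, a ratio of 0.997 (0.974 to 1.02). Med13 shares 800 exon bases with the antisense gene Brip1os, and with the length trend removed its log2 ratio was 0.97 in place of 1.18.

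The other genes of the kinase module differed by less. Med13l, the paralog of Med13, had 1165 counts against 800, 1.46-fold higher (1.33 to 1.6), and Med12, which activates the kinase, had 525 against 397, 1.32-fold higher (1.16 to 1.51). Med12l had 426 against 548, 1.29-fold lower (1.13 to 1.46). Of the partners of the module with other names, Cdk8 had 1581 against 1312, 1.21-fold higher (1.12 to 1.3). Its paralog Cdk19 had 47 against 111, 2.36-fold lower (1.66 to 3.40), and the cyclin gene Ccnc had 2 against 8.

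In the tail and scaffold, 2 of 8 genes were lower by 2-fold or more, where 16.7% of all genes were, and 0 were higher by that much, where 12.5% were. Med25, a target of viral and cellular activators, had 2606 counts in siDnmt1 against 5381 in scrambled, 2.06-fold lower (1.97 to 2.16), and Med29 had 335 against 758, 2.26-fold lower (1.99 to 2.58). With the length trend removed Med29 was inside 2-fold, at a log2 ratio of -0.36. On the other side of equality, Med24 had 3657 against 1949, 1.88-fold higher (1.78 to 1.98), Med23 had 962 against 539, 1.78-fold higher (1.6 to 1.99), and the scaffold gene Med14 had 1096 against 716, 1.53-fold higher (1.39 to 1.68). Med15, a docking site of activators, had 297 against 207 (1.43-fold higher), Med27 104 against 111 and Med16 32 against 51. The sums of these 8 genes were 9089 and 9712, so that large differences in both directions nearly offset each other.

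In the head, which contacts the polymerase, Med28 and Med6 were past 2-fold downward and Med19 upward. Med6 had 22 counts against 78, 3.55-fold lower (2.19 to 5.98), and a log2 ratio of -0.62 with the length trend removed. Med17, the architectural centre of the head, had 472 against 414, Med20 667 against 683 and Med22 517 against 422, all within 1.23-fold. Med11 had 9 against 21, Med8 12 against 3, Med18 7 in each library and Med30 4 against 6, too few to be compared.

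In the middle module, Med10 had 18 counts in siDnmt1 against 64 in scrambled, 3.56-fold lower (2.08 to 6.38), and Med26, which links Mediator to elongation factors, had 15 against 45, 3.0-fold lower (1.64 to 5.79). Med1, the subunit that nuclear receptors bind, had 884 against 639, 1.38-fold higher (1.25 to 1.53). Med21, a partner of Med7, had 315 against 296 and Med4 had 41 against 57. A processed pseudogene, Rps26-ps1, matches 26% of the Med21 transcript at 98.4% identity. Med21 also shares 197 exon bases with Tm7sf3 on the opposite strand, which had 310 against 227, so the Med21 counts are uncertain. Med31 had 6 counts against 0 and shares 455 exon bases with 4930563E22Rik on the opposite strand, which had 12 against 0. Med9 had 0 against 3. Med7 and Med19 were thus the only subunits past 2-fold upward among the 12 compared genes of head and middle, where 12.5% of all genes were. Past 2-fold downward were 4 of the 12, where 16.7% of all genes were, and Med6 was inside 2-fold with the length trend removed. The median log2 ratio of the 24 Mediator genes compared was 0.14, while their mean was -0.05.

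Some of these counts are uncertain because exons overlap. Med19 shares 246 exon bases with Zdhhc5 on the opposite strand, which had 5080 counts in siDnmt1 and 3225 in scrambled, far more than Med19 in either library. Med10 shares 4168 with the noncoding gene Gm26819 and Med7 shares 609 with the noncoding gene 2310031A07Rik, whose counts were not analysed here. The part of overlapping genes in these ratios was not tested.

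**Figure D3:**
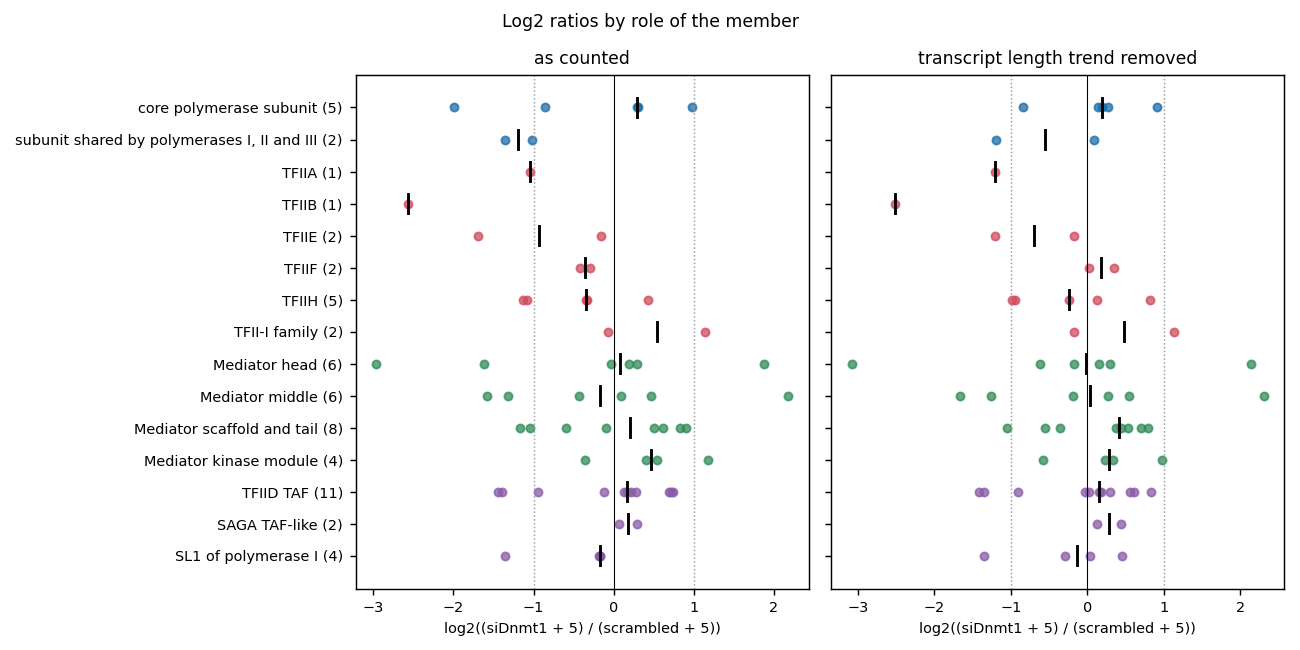
Log2 ratios by role for 61 of the compared genes (Polr2m and Taf15 are not drawn), as counted on the left and with the transcript length trend removed on the right, with a bar at the median of each group and its number of genes in brackets. The points of TFIIA, TFIIB and TFIIE lie left of 0 in both panels, and the Mediator head and middle span both sides of the 2-fold lines.

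Of the 18 TAF genes compared, 3 were lower in siDnmt1 by 2-fold or more, a share no different from the 16.7% of all genes, and 0 were higher by that much, where 12.5% of all genes were. The summed counts of the class were 10736 in siDnmt1 against 10912 in scrambled. Without Taf1d, its most counted gene, they were 7213 and 6946, a ratio of 1.04 (1.005 to 1.073). The median log2 ratio was 0.10 and the mean -0.11. Taf11, which pairs with Taf13 through a histone fold, had 171 counts against 472, 2.76-fold lower (2.31 to 3.31), and Taf13 had 11 against 27, below the minimum mean. Taf5, a structural subunit of TFIID, had 19 against 58, 3.05-fold lower (1.79 to 5.43). Taf7, which binds Taf1, had 505 against 976, 1.93-fold lower (1.73 to 2.16). Taf11 shares 341 exon bases with Anks1 on the opposite strand, which had 220 counts against 297.

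Other TFIID genes were higher in siDnmt1 by less than 2-fold. Taf2, which contacts core promoter DNA, had 726 counts against 431, 1.68-fold higher (1.49 to 1.90), and Taf6 had 359 against 216, 1.66-fold higher (1.40 to 1.98). Taf1, the largest subunit, had 1018 against 907, Taf3, a reader of the histone mark of active promoters, had 253 against 208, and Taf8 had 916 against 787. Taf9 had 902 against 981, but 3 processed pseudogenes in GENCODE M21 match its transcript at 95% identity or more, and it shares 1564 exon bases with Ak6, so its counts are uncertain. Taf10 had 2 counts against 3, Taf12 3 against 7 and Taf7l 0 against 1.

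Some TAF names belong to other complexes. Of the SL1 complex of RNA polymerase I, Taf1d had 3523 counts in siDnmt1 against 3966 in scrambled, Taf1a 186 against 211 and Taf1b 67 against 76, all 1.13-fold lower. Taf1d shares exon bases with small nucleolar RNA and microRNA genes on the same strand. Taf1c had 25 against 72, 2.88-fold lower (1.80 to 4.74), and shares 584 exon bases with Dnaaf1 on the opposite strand. Taf15, an RNA-binding protein of the FET family, had 957 against 653, 1.47-fold higher (1.33 to 1.62). Taf5l and Taf6l, which stand in for Taf5 and Taf6 in the SAGA coactivator, had 419 against 400 and 140 against 113.

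Pairs of paralogs were compared by the share that 1 paralog took of the counts of its pair, which no scaling of the libraries can change. Taf4b, a germ-cell-enriched paralog of Taf4a, took 92% of the Taf4b and Taf4a counts in siDnmt1 (89.3 to 94.1) and 88.6% in scrambled (84.7 to 91.7), and these intervals overlap. Taf5l took 95.7% of its pair with Taf5 in siDnmt1 (93.3 to 97.4) and 87.3% in scrambled (83.9 to 90.2). Med12l took 44.8% of its pair with Med12 in siDnmt1 (41.6 to 48.0) and 58.0% in scrambled (54.8 to 61.2), and these intervals do not overlap. Per kilobase of longest transcript, Med12 stood above Med12l in both libraries, at 75.7 counts against 38.7 in siDnmt1 and 57.2 against 49.8 in scrambled. Med13l took 8.95% in siDnmt1 and 13.3% in scrambled. Taf9b had 0 counts in siDnmt1 beside 902 of Taf9, and 6 beside 981 in scrambled. Med12l shares 1948 exon bases with Igsf10, which had no count in either library.

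**Figure D4:**
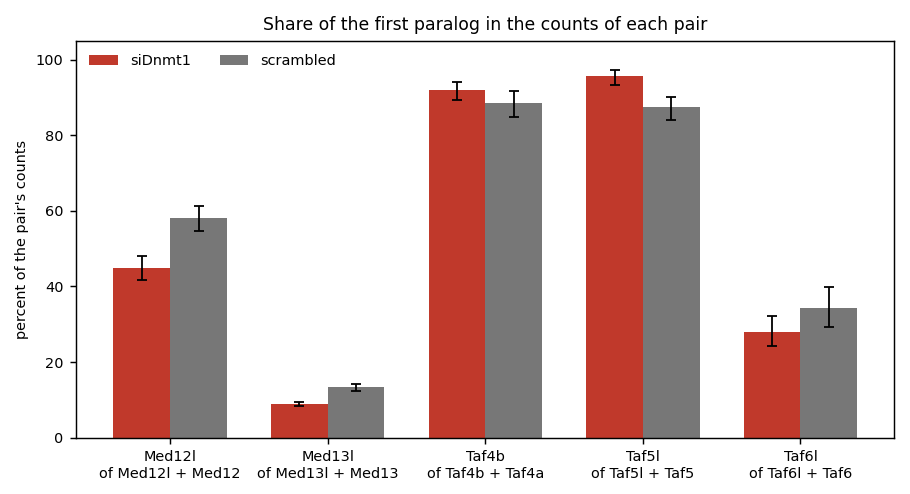
Share of the first-named paralog in the summed counts of its pair, in percent, for siDnmt1 (left bar of each pair) and scrambled (right bar), with exact 95% binomial intervals of counting error. The intervals for Med12l, Med13l and Taf5l do not overlap between the libraries, whereas those for Taf4b and Taf6l do.

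Transcript length moved with the ratios. Over the 63 genes compared, Spearman's rho between the longest GENCODE M21 transcript and the log2 ratio was 0.356, and over the 7270 genes with a length it was 0.236. Genes of 1 library pair share both libraries, so these values are descriptions without a p. Of the 39 genes at or below the median length of all genes (3787 nt), 14 were lower by 2-fold or more, where 22.9% of all genes of that length were. Of the 24 longer ones, 3 were, where 10.4% of all longer genes were. Medians of the log2 ratio were -0.35 for the 39 and 0.29 for the 24, beside -0.22 and 0.16 for all genes of these lengths. The mean count also moved with the ratio among the 63 genes (rho 0.43, against 0.10 over all genes with a length).

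**Figure D5:**
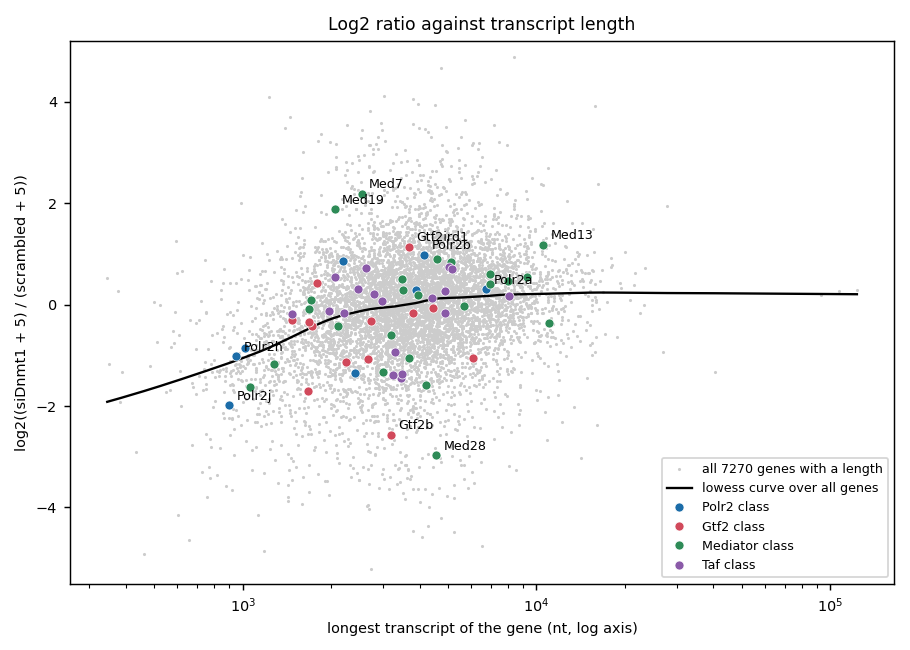
Log2 ratio against the length of the longest transcript on a log axis, for all 7270 genes with a length (grey) and the 63 genes described here (coloured by class), with the lowess curve over all genes. The curve lies below 0 at short transcripts, Polr2h (950 nt) sits close to it, and Med28, Gtf2b, Med7 and Med19 lie far from it.

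With the length trend removed, 4 of the 63 genes were past 2-fold upward, where 12.9% of all genes with a length were, and 11 were past it downward, where 14% were. Polr2m joined the higher genes at a log2 ratio of 1.06 and Med13 left them. Polr2h, with a transcript of 950 nt, had a log2 ratio of 0.08 in place of -1.02, Polr2j -0.84, Med29 -0.36, Med6 -0.62, Gtf2h3 -0.98 and Gtf2h5 -0.94. Taf11, Taf5, Taf1c, Polr2e, Gtf2e2, Gtf2a1, Med10, Med25 and Med26 stayed past 2-fold downward, with log2 ratios from -1.66 to -1.05. The part of transcript length in these ratios was not tested.

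Genes of the same pathway under other names were taken from 6 lists, with 73 of 80 genes compared. Of these, 3 were past 2-fold upward in siDnmt1, where 12.5% of all genes were, and 10 downward, where 16.7% were. Their median log2 ratio was -0.04. With the length trend removed 3 were past 2-fold upward, where 12.9% of all genes with a length were, and 8 downward, where 14% were. Among the TATA-binding protein and its regulators, Tbp had 145 counts against 180, Btaf1, which removes it from DNA, 1063 against 1149, and Dr1, a repressor subunit, 173 against 216. Tbpl1, a relative of Tbp, had 2 counts against 44, a ratio of 0.045 (0.0053 to 0.17), and Drap1, the partner of Dr1, had 0 against 20. Of the TFIIH subunits with other names, the helicase gene Ercc3 had 421 against 158, 2.66-fold higher (2.21 to 3.22), while Ercc2 had 993 against 1431 and the cyclin gene Ccnh 652 against 1072.

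In the list on pausing and elongation, 1 of 31 genes compared was past 2-fold upward, where 12.5% of all genes were, and 4 downward, where 16.7% were. With the length trend removed, 2 were past 2-fold downward, where 14% of all genes with a length were. Cdc73, of the Paf1 complex, had 142 counts in siDnmt1 against 58 in scrambled, 2.45-fold higher (1.79 to 3.38), and Wdr61 of the same complex had 62 against 149, 2.40-fold lower (1.78 to 3.29). Supt4a, the small subunit of the elongation factor DSIF, had 3949 against 9497, 2.40-fold lower as counted but with a log2 ratio of -0.07 once the length trend was removed, and its large partner Supt5 had 5239 against 4123, 1.27-fold higher. Larp7, of the 7SK particle, had 155 against 361, 2.33-fold lower (log2 ratio -0.96 with the length trend removed). The elongin subunit gene Tceb1 had 14 against 45, 3.21-fold lower (1.73 to 6.34). The list on phosphatases of the polymerase tail and on polymerase assembly also held kinase genes. Of these, Cdk13 had 161 counts against 70, 2.30-fold higher (log2 ratio 0.92 with the length trend removed). In the same list Ctdspl had 140 against 296, 2.11-fold lower (1.72 to 2.60). In the list on SAGA, Kat2b had 62 against 203, 3.27-fold lower (2.45 to 4.42), and Supt3 89 against 230, 2.58-fold lower (2.01 to 3.34). Eny2 had 10 against 31, 3.10-fold lower (1.48 to 7.09).

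RNA polymerases I and III, which transcribe ribosomal and small RNAs, also held genes past 2-fold. Of the 5 Polr1 genes, 0 were past 2-fold upward and 2 downward (Polr1c and Polr1d), where 12.5% and 16.7% of all genes were, with a median log2 ratio of -0.15. Both calls were lost with the length trend removed, at log2 ratios of -0.65 for Polr1c and -0.30 for Polr1d. Of 14 compared Polr3 and Gtf3 genes, 1 was higher (Polr3g, 908 counts against 395) and 1 lower (Gtf3c3, 130 against 372), with a median of -0.08. The second-largest subunit of polymerase I, Polr1b, had 3468 counts against 1872, 1.85-fold higher (1.75 to 1.96), and the largest, Polr1a, 3438 against 3084, 1.11-fold higher (1.06 to 1.17). Differences between these polymerases could not be tested with 1 library per group.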

How the data were processed

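Counts per gene were deposited by the authors in 1 table with a column for each library. HTSeq, Trim Galore, HISAT2, DESeq2 and mm9 are listed, with no versions, per the submitters' processing notes. Not given in the sources used here were the annotation, whether counting used the strand, and how reads with several matches were treated. By its name the deposited table is normalised, but its values are whole numbers and every whole number from 1 to 379 occurs in both columns, which a column scaled up and rounded would not show. Scaling of 1 column downward cannot be told apart from raw counts in this way. DESeq2 size factors computed on the table were 1 for both columns, which values already normalised would also give. Whether the values are raw or normalised and rounded was not settled. They were used as counts, and the intervals treat them as raw counts. Per the labels' protocols, mRNA was isolated on beads and its cDNA amplified by 20 cycles of PCR. No molecular identifiers are described, so reads are not independent molecules.

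Genes whose mean reached 20 counts were compared on log2((siDnmt1 + 5)/(scrambled + 5)), which understates changes of genes with few counts. Folds in the text are plain count ratios. Nothing was fitted across libraries, since there are no residual degrees of freedom. Transcript lengths (from GENCODE M21, taking each symbol's longest transcript, found for 82 of 82 genes described and 99.4% of genes compared) gave a lowess trend with a span of 0.3. Copies were sought with blastn. Coordinates are GRCm38.p6, used for RefSeq windows only. The genes, lists and roles were chosen with earlier results of these data known. Named genes are all members, with intervals for those past 2-fold and class extremes. Other genes of the lists and other intervals were chosen after their values were seen. Fold and interval functions were tested on simulated data. Scaling alternatives used DESeq2 1.42.0 and edgeR 4.0.16 in R 4.3.3. The rest used statsmodels 0.14.6, scipy 1.17.1 and pandas 2.3.3 in Python 3.11.15.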

Additional observations from a re-analysis of the deposited data

How the results depend on the processing

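The medians of all 63 genes and of the Gtf2, Mediator and Taf classes moved by less than 0.27, the median half-width of a gene's counting interval on the log2 scale, under the alternatives run. Some of these are near 0, so their sign is not fixed. The Polr2 median of -0.28 was -0.70 without a filter, 0.30 at a mean of at least 100 counts and 0.16 without the trend on transcript length. The 4 genes at least 2-fold higher became 7 without a filter, 1 at a mean of at least 100 and 1 at 4-fold. The 17 lower became 7 at a mean of at least 100, 11 without the length trend and 2 at 4-fold. The cause of these moves was not tested, beyond the smaller or larger number of genes compared (45 at a mean of at least 100, 78 without a filter). Polr2h reversed, at 0.082, without the length trend. With the trend on median transcript length removed instead, a choice made after seeing the data, 6 genes were higher and 15 lower. Except with the trend on the longest transcript removed, the shares of all genes under these alternatives are not given here. Summed count ratios of the Polr2, Gtf2, Mediator and Taf classes were 1.58, 0.715, 1.27 and 0.939 with equal totals, and 1.77, 0.799, 1.43 and 1.05 with equal totals without Rn45s, so that the direction of the Taf sum depends on the scaling. These scalings of sums were chosen after seeing the data. TMM and a median of 0 left each sum within its counting interval. The DESeq2 size factors were 1 for both libraries, so that this alternative repeated the main values and could move nothing. No scaling moved the median of all genes by more than 0.1. No paired analysis was possible because each group has 1 library, and no library could be left out. Of the genes compared, Gtf2b, Gtf2h5, Med7, Med10, Med19, Med26, Med28 and Taf5 had fewer than 20 counts in 1 library, which limits their ratios.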
